A study of Mus musculus with 18 samples.

Results

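The receptors for interferon gamma (IFN-γ) and interleukin 4 (IL-4), together with the Janus kinases that carry their signals, were followed in mouse eosinophils given either cytokine or killed bacteria. These genes were picked by name for their place in the pathway, with earlier results of these data known. They are the IFN-γ receptor chains *Ifngr1* and *Ifngr2*, the IL-4 receptor chains *Il4ra*, *Il2rg* and *Il13ra1*, and the kinases *Jak1*, *Jak2*, *Jak3* and *Tyk2*. These 9 genes were among 55029 genes listed where *E. coli* and IFN-γ were given and among 54232 listed for the IL-4 experiment. All 9 had enough counts to be tested in both.

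IFN-γ binds *Ifngr1*, which then joins *Ifngr2*, and the kinases Jak1 and Jak2 bound to these chains pass the signal on by phosphorylation. IL-4 binds *Il4ra*, which pairs either with the common gamma chain *Il2rg*, to which Jak3 is bound, or with *Il13ra1*, to which Tyk2 is bound, and in both cases the main factor switched on is Stat6. The pair with *Il13ra1* also receives IL-13, so the partner chain decides which ligands a cell can sense, and eosinophils are a cell in which both the allergic and the antibacterial form of inflammation act.

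The cells came from the peritoneal cavity of C57BL/6 mice of the NJ.1638 *Il5* transgenic line, whose excess IL-5 fills the body with eosinophils, and were purified by depletion of Thy1.2-positive and B220-positive cells on beads. The eosinophils were cultured for 18 h in medium with fetal calf serum, without a stimulus or with heat-inactivated *E. coli*, IFN-γ at 50 ng/ml, both of these, or IL-4 at 100 ng/ml. Every group, the unstimulated one included, thus carried the transgene. The age and number of the mice, and whether their cells were pooled, are not given in the sources used here, so the spread between libraries may be that of preparation alone. With 3 libraries for each stimulus and 6 without one, 18 libraries were counted at the 3′ end of transcripts by CEL-Seq2.

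The files come in 2 layouts, and comparisons were made within a layout. Replicates a, b and c served *E. coli*, IFN-γ and both together, at 1523808 to 2734041 counts on genes in a library. Replicates d, e and f served IL-4, at 3625036 to 6482289 counts. Levels are given in CPM, the counts on a gene scaled to a common library size, after TMM normalization, and changes as log2 fold changes, where 1 is a doubling. A gene was called changed when edgeR's p, adjusted over all genes tested in that comparison, was under 0.05. A level of 3 counts, the smallest set apart from 0 here, was 1.10 to 1.97 CPM in the first layout and 0.463 to 0.828 CPM in the second, and this floor covers counting error only. Unstimulated replicate e stood apart from its group. The squared difference between libraries relative to counting error, averaged over genes, was 23.7 between replicates e and d and 22 between e and f, against 7.86 between d and f. For the 9 genes, changes with IL-4 are therefore also given without it, while those of other genes are given with it only. In bulk RNA, fewer cells of a type and less RNA per cell cannot be told apart.

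Cells with IFN-γ were compared with unstimulated cells to ask whether the cytokine changes its own receptor. The ligand-binding chain *Ifngr1* (ENSMUSG00000020009, GRCm38 chromosome 10, 19591949 to 19610229) stood at 120, 127 and 114 CPM in unstimulated replicates a to c and at 110, 95.3 and 131 CPM with IFN-γ. These libraries overlap, with 1 IFN-γ library above all the unstimulated ones. Its log2 fold change was −0.10 (95% interval −0.43 to 0.22, adjusted p 0.654). The signalling chain *Ifngr2* (ENSMUSG00000022965, chromosome 16, 91547072 to 91565623) stood at 253, 204 and 251 CPM without a stimulus and at 242, 230 and 235 CPM with IFN-γ. Every IFN-γ library fell inside the unstimulated range. Its log2 fold change was −0.01 (95% interval −0.25 to 0.23, adjusted p 0.969), so a change of either chain of its own receptor by IFN-γ beyond these intervals was not seen at 18 h.

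*E. coli* separated the receptor chains of IFN-γ. *Ifngr2* rose to 361, 338 and 356 CPM, while *Ifngr1* stood at 117, 127 and 108 CPM. For *Ifngr2* each *E. coli* library lay above each unstimulated one, and for *Ifngr1* the groups overlapped. The log2 fold change of *Ifngr2* was 0.57 (SE 0.111, 1.49-fold, adjusted p 6.56e-04). *Ifngr2* was called under each of 20 alternative settings, not counting a required minimum fold change, which it does not reach. The log2 fold change of *Ifngr1* was −0.03 (95% interval −0.34 to 0.29, adjusted p 0.922).

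With both stimuli, *Ifngr1* fell to 86.9, 59.2 and 99.6 CPM and *Ifngr2* stood at 299, 267 and 334 CPM. No library with both stimuli overlapped the unstimulated ones for either chain, *Ifngr1* being below them and *Ifngr2* above. The change of *Ifngr1* was −0.56 (SE 0.160, adjusted p 0.00684), and without replicate 2 of both stimuli, its lowest library, it was −0.36 and no longer called (adjusted p 0.0634). The change of *Ifngr2* was 0.34 (SE 0.113, adjusted p 0.0179). It was no longer called without unstimulated replicate b (0.27, adjusted p 0.0636) or without replicate 3 of both stimuli (0.27, adjusted p 0.0688). The fit of only the 6 libraries compared (0.33, adjusted p 0.0587) and that against all 6 unstimulated libraries (0.27, adjusted p 0.113) did not call it either. Against *E. coli* alone, *Ifngr1* was lower by a log2 of −0.54 (adjusted p 0.0140). This call ended without *E. coli* replicate 2 (−0.48, adjusted p 0.0613) and without replicate 2 of both stimuli (−0.34, adjusted p 0.107).

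IL-4 was the stimulus with which *Ifngr1*, the chain of the opposing receptor, was higher. It stood at 115, 141 and 120 CPM in unstimulated replicates d to f and at 189, 198 and 169 CPM with IL-4. The lowest IL-4 library lay well above the highest unstimulated one, which was replicate e. The rise was a log2 of 0.56 (SE 0.130, 1.48-fold, adjusted p 0.0210), and without replicate e it was 0.66 (adjusted p 0.00106). Without IL-4 replicate 3 it was still called (0.61, adjusted p 0.0486). Leaving out any of the other 4 libraries kept the direction and ended the call, at 0.50 without unstimulated replicate d (adjusted p 0.0507), 0.53 without f (0.0746), 0.56 without IL-4 replicate 1 (0.0903) and 0.51 without IL-4 replicate 2 (0.113).

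*Ifngr2* stood at 241, 183 and 217 CPM without and at 254, 251 and 279 CPM with IL-4. All IL-4 libraries were higher, though by a margin smaller than the spread among the unstimulated ones. Its change of 0.30 was not called (95% interval 0.01 to 0.59, adjusted p 0.189), and without replicate e it was 0.19 (adjusted p 0.275). It was called when set against the 6 unstimulated libraries of both layouts (0.44, adjusted p 0.0349). The difference between the responses of *Ifngr1* to IL-4 and to IFN-γ was tested over all 18 libraries. It was 0.63 (SE 0.208, adjusted p 0.0268), and it was no longer called in 8 of the 18 fits that left out a library, at 0.52 to 0.64. Without replicate e it was 0.72 (adjusted p 0.0111).

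The balance of the IFN-γ receptor chains was read as the log2 ratio of *Ifngr1* to *Ifngr2* within each library, in which library size cancels. Its mean was −0.96 ± 0.24 (SD, n = 3) in unstimulated replicates a to c, −1.07 ± 0.22 with IFN-γ, −1.58 ± 0.16 with *E. coli* and −1.89 ± 0.23 with both. Each library with *E. coli*, alone or with IFN-γ, held a lower ratio than each unstimulated one. The ratio differed from unstimulated by −0.61 with *E. coli* and by −0.93 with both (each with an exact two-sided permutation p of 0.1, the smallest that 3 against 3 libraries can give). With IFN-γ alone the difference was −0.11 (exact permutation p 0.5) and with IL-4 it was 0.26 (exact permutation p 0.3). Leaving out a library in turn gave −0.70 to −0.48 with *E. coli*, −1.01 to −0.79 with both, −0.23 to 0.03 with IFN-γ and 0.12 to 0.46 with IL-4, the highest of these without replicate e.

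The chain that every IL-4 receptor holds is *Il4ra* (ENSMUSG00000030748, chromosome 7, 125552120 to 125579474). Cells with IL-4 were compared with unstimulated ones to ask whether the cytokine changes its own receptor, and *Il4ra* stood at 111, 143 and 104 CPM without it and at 114, 120 and 107 CPM with it. The groups overlapped entirely. Its log2 fold change was −0.07 (95% interval −0.40 to 0.25, adjusted p 0.793), and without replicate e it was 0.08, also not called (adjusted p 0.732).

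Its partner in the receptor that only IL-4 uses, the common gamma chain *Il2rg* (ENSMUSG00000031304, chromosome X, 101264378 to 101268255, minus strand), stood at 371, 466 and 447 CPM without and at 375, 348 and 360 CPM with IL-4. All but 1 of the IL-4 libraries were below the unstimulated ones. The change of −0.25 was not called (95% interval −0.52 to 0.02, adjusted p 0.236; without replicate e −0.19, adjusted p 0.296). The partner in the receptor shared with IL-13, *Il13ra1* (ENSMUSG00000017057, chromosome X, 36112110 to 36171259), stood at 8.89, 10.9 and 13.2 CPM without and at 16.7, 10.1 and 11.1 CPM with IL-4. Here too the libraries overlapped, and IL-4 replicate 1 was the highest. Its change was 0.19 (95% interval −0.39 to 0.78, adjusted p 0.695; without replicate e 0.17, adjusted p 0.772). None of the IL-4 receptor chains was thus called with IL-4, and the interval of *Il13ra1*, the least counted of them, is the widest.

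IFN-γ raised both partner chains of the opposing receptor. *Il13ra1* stood at 5.96, 5.70 and 7.43 CPM in unstimulated replicates a to c, from 16, 9 and 18 counts, and at 50.9, 72.8 and 79.1 CPM with IFN-γ, from 91, 142 and 121 counts. The lowest IFN-γ library held several times the level of the highest unstimulated one. Its log2 fold change was 3.38 (SE 0.243, 10.4-fold, adjusted p 4.97e-09), which was called in each of 19 alternative settings. *Il2rg* stood at 213, 213 and 270 CPM without and at 668, 608 and 682 CPM with IFN-γ. No library came near the other group. The rise of *Il2rg* was 1.49 (SE 0.113, 2.81-fold, adjusted p 1.01e-08).

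*Il4ra* itself did not follow its partners. With IFN-γ it stood at 113, 134 and 137 CPM, against 105, 112 and 120 CPM without a stimulus. The lowest IFN-γ library lay among the unstimulated ones. The log2 fold change was 0.19 (95% interval −0.04 to 0.42, adjusted p 0.207). The responses of the partner chains to IL-4 and to IFN-γ differed when the difference was tested, by −3.23 for *Il13ra1* (SE 0.362, adjusted p 7.86e-07) and by −1.77 for *Il2rg* (SE 0.162, adjusted p 4.31e-08). For *Il4ra* this difference was −0.30 and was not called (adjusted p 0.220). Without replicate e these differences were −3.25 (adjusted p 1.03e-06), −1.71 (2.96e-08) and −0.15 (0.542).

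*E. coli* acted on *Il4ra*, which IFN-γ had not been seen to change. Its levels were 239, 231 and 252 CPM with *E. coli* and 121, 123 and 130 CPM with *E. coli* and IFN-γ. *E. coli* alone placed every library far above the unstimulated ones, while with both stimuli the libraries lay just above it. The log2 fold change was 1.10 with *E. coli* (SE 0.107, 2.14-fold, adjusted p 3.07e-07) and 0.15 with both (95% interval −0.08 to 0.39, adjusted p 0.278). Adding IFN-γ to *E. coli* thus lowered *Il4ra* by a log2 of −0.95 (SE 0.108, adjusted p 1.43e-06). Measured against additive log2 effects, the joint effect on *Il4ra* fell short by −1.14 (SE 0.155, adjusted p 2.86e-04), and this held in all 17 alternative settings.

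The partner chains rose with *E. coli* as well, by less than with IFN-γ. *Il13ra1* stood at 11.4, 16.0 and 19.3 CPM and *Il2rg* at 314, 300 and 329 CPM with *E. coli*. Both were above every unstimulated library and below every IFN-γ library. The log2 fold changes were 1.26 for *Il13ra1* (SE 0.285, 2.39-fold, adjusted p 0.00237) and 0.43 for *Il2rg* (SE 0.112, 1.35-fold, adjusted p 0.00620). The unstimulated levels of both genes differ between the layouts, with *Il2rg* at 232 ± 32.7 CPM (SD, n = 3) in replicates a to c and 428 ± 50.3 CPM in d to f, and *Il13ra1* at 6.37 ± 0.933 and 11 ± 2.16 CPM. Layout, preparation and unit of counting cannot be told apart there. Against all 6 unstimulated libraries as one group, *Il2rg* was lower with *E. coli* by −0.33 (adjusted p 0.457) and *Il13ra1* higher by 0.54 (adjusted p 0.258), neither of them called, and the rise of *Il2rg* with IFN-γ was 0.74 (adjusted p 0.0880).

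With both stimuli, *Il13ra1* stood at 62.1, 54.8 and 75.2 CPM and *Il2rg* at 609, 601 and 643 CPM. These values overlap those with IFN-γ alone. Against unstimulated cells the log2 fold changes were 3.30 for *Il13ra1* (SE 0.247, 9.85-fold, adjusted p 2.83e-09) and 1.41 for *Il2rg* (SE 0.113, 2.66-fold, adjusted p 7.95e-09). With the unstimulated libraries of both layouts as controls the rise of *Il2rg* was 0.68 and not called (adjusted p 0.0815). That of *Il13ra1* was 2.62 there and called (adjusted p 7.49e-06). Against IFN-γ alone the log2 fold changes were −0.08 for *Il13ra1* and for *Il2rg* and not called (adjusted p 0.843 and 0.721). For *Il13ra1* the joint effect was below the sum of both effects by a log2 of −1.34 (SE 0.340, adjusted p 0.0278), a call that ended in 7 of the 12 fits that left out a library. These were the fits without unstimulated replicate a (−1.28, adjusted p 0.0974) or b (−1.31, 0.0569), *E. coli* replicate 2 (−1.31, 0.0730) or 3 (−1.20, 0.0525), IFN-γ replicate 2 (−1.31, 0.0579) or 3 (−1.24, 0.0613), or replicate 2 of both stimuli (−1.24, 0.0664). For *Il2rg* it was −0.51 and not called (adjusted p 0.0710), although DESeq2 called it (−0.52, adjusted p 0.0354) and so did the fits without unstimulated replicate c (−0.65, adjusted p 0.0243) and without a filter on low counts (−0.58, adjusted p 0.0383).

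Because *Il13ra1* and *Il2rg* compete for *Il4ra*, their log2 ratio was taken within each library. It was −4.94, −5.00 and −5.00 in unstimulated replicates a to c and −3.69, −3.04 and −3.09 with IFN-γ. All IFN-γ libraries were higher. The difference of 1.71 had an exact two-sided permutation p of 0.1, the smallest possible. The ratio rose by 1.72 with both stimuli and by 0.70 with *E. coli* (each with an exact permutation p of 0.1), and by 0.42 with IL-4 (exact permutation p 0.2). Leaving out a library in turn gave 1.59 to 1.91 with IFN-γ, 1.63 to 1.80 with both and 0.58 to 0.90 with *E. coli*. With IL-4 it gave 0.24, without IL-4 replicate 1, to 0.53, and 0.36 without replicate e. A ratio of transcripts counted at their 3′ ends says how the balance moved and not which chain was the more abundant on the cell.

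**Figure D1:**
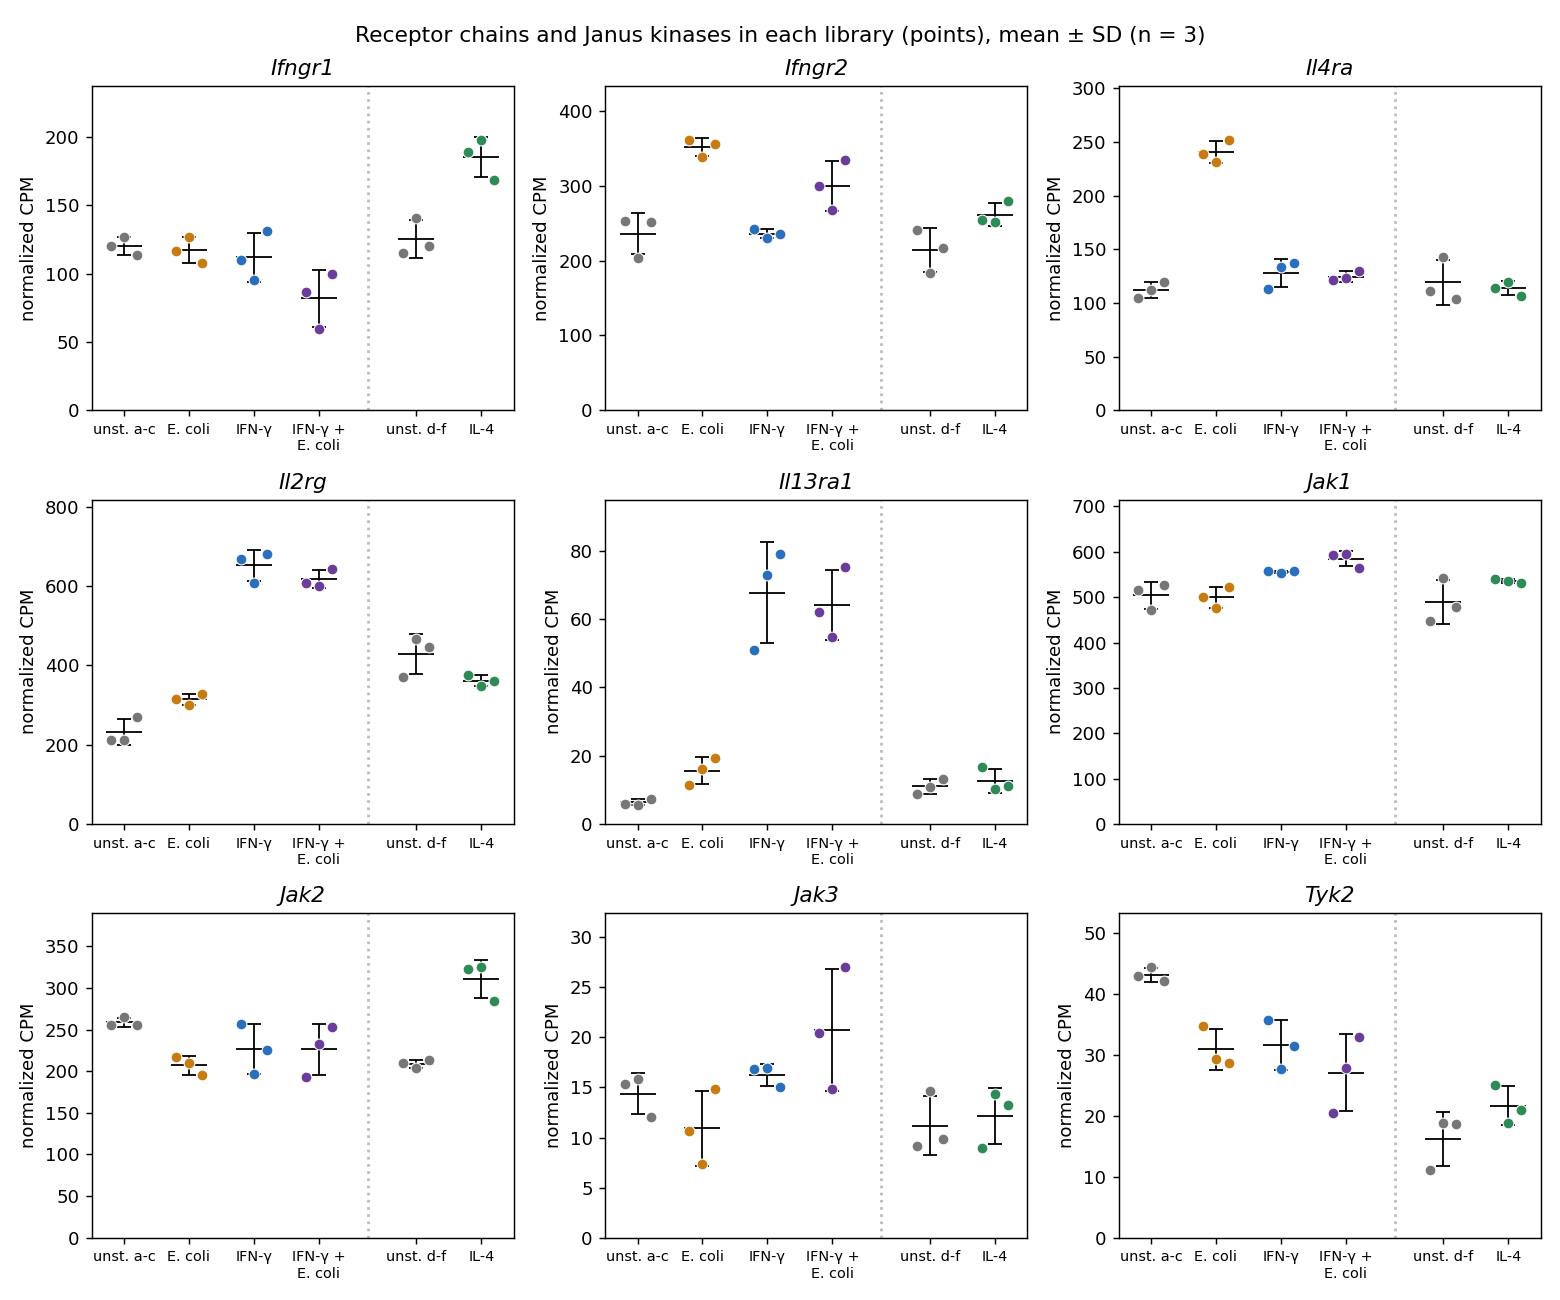
Level of each of the 9 genes in every library, in TMM-normalized CPM, with the mean and SD of each group of 3 libraries; the unstimulated libraries of each layout are drawn beside the stimuli compared with them. *Il13ra1* rises from 5.70 to 7.43 CPM in unstimulated replicates a to c to 50.9 to 79.1 CPM with IFN-γ, and *Il4ra* from 105 to 120 CPM to 231 to 252 CPM with *E. coli*.

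Among the kinases, *Jak1* (ENSMUSG00000028530, chromosome 4, 101152367 to 101265282, minus strand) works at both receptors. It stood at 515, 471 and 527 CPM in unstimulated replicates a to c, at 501, 475 and 522 CPM with *E. coli* and at 557, 554 and 558 CPM with IFN-γ. With both stimuli it stood at 593, 596 and 565 CPM. The libraries with IFN-γ, alone or with *E. coli*, were all above the unstimulated ones, by a small margin. In the fits within a layout edgeR did not call *Jak1* against unstimulated cells. Its largest change from unstimulated was 0.21 with both stimuli (95% interval 0.01 to 0.42, adjusted p 0.0801), which DESeq2 called (0.24, adjusted p 0.0213), as edgeR did in one fit of all 18 libraries (0.28, adjusted p 0.0256). With both stimuli against *E. coli* alone it was 0.23 and not called (adjusted p 0.0797), but was called by DESeq2 (0.25, adjusted p 0.0245) and by edgeR with the replicate number as a block (0.22, adjusted p 0.0475). With IL-4 the change was 0.13 (95% interval −0.12 to 0.38), and without replicate e 0.21 (adjusted p 0.173).

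*Jak2* (ENSMUSG00000024789, chromosome 19, 29251828 to 29313080), the kinase of *Ifngr2*, stood at 210, 204 and 213 CPM in unstimulated replicates d to f and at 323, 325 and 284 CPM with IL-4. The unstimulated libraries lay close together, and every IL-4 library was far above them. The log2 fold change was 0.57 (SE 0.113, 1.49-fold, adjusted p 0.00969), and 0.55 without replicate e (adjusted p 0.00227). It was no longer called without IL-4 replicate 1 (0.56, adjusted p 0.0626) or 2 (0.53, adjusted p 0.0692). With IFN-γ *Jak2* stood at 257, 197 and 226 CPM, against 256, 265 and 255 CPM in unstimulated replicates a to c. IFN-γ replicate 1 lay among the unstimulated libraries and the other IFN-γ libraries were below them. The change was −0.19 and not called (adjusted p 0.247). The responses to IL-4 and IFN-γ differed by 0.73 (SE 0.161, adjusted p 0.00166), and without replicate e by 0.71 (adjusted p 0.00261). This difference was called in each of 23 alternative settings too, not counting a required factor of 2, which it does not reach. Within a layout, *Ifngr1* and *Jak2* were thus called higher with IL-4, and *Il2rg* and *Il13ra1* with IFN-γ. Of the 6 fits that left out a library, 4 ended the call of *Ifngr1* and 2 that of *Jak2*. The rise of *Il2rg* was not called against all 6 unstimulated libraries (0.74, adjusted p 0.0880).

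*E. coli* brought *Jak2* to 217, 210 and 195 CPM, all below the unstimulated libraries. The change of −0.32 (SE 0.118, adjusted p 0.0476) lay at the threshold. It was not called by DESeq2 (−0.31, adjusted p 0.0670), with its size factors in edgeR (−0.31, 0.0586), without a filter on low counts (−0.28, 0.158) or in one fit of all 18 libraries (−0.29, 0.0692). Leaving out any unstimulated or *E. coli* library ended the call as well, at −0.32 without unstimulated replicate a (adjusted p 0.0986), −0.28 without b (0.128) and −0.32 without c (0.0864). Without *E. coli* replicate 1 it was −0.34 (0.0825), without 2 it was −0.32 (0.114) and without 3 it was −0.27 (0.146). The fits without IFN-γ replicate 2 (−0.30, 0.0625) or 3 (−0.30, 0.0775) or replicate 2 of both stimuli (−0.31, 0.0644) did not call it either. With both stimuli *Jak2* stood at 193, 233 and 253 CPM, also all below the unstimulated libraries. This change of −0.19 was not called (adjusted p 0.197).

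*Tyk2* (ENSMUSG00000032175, chromosome 9, 21104068 to 21131243, minus strand), the kinase that binds *Il13ra1*, stood at 42.9, 44.4 and 42.1 CPM in unstimulated replicates a to c. It stood at 34.7, 29.4 and 28.6 CPM with *E. coli*, at 35.8, 27.7 and 31.4 CPM with IFN-γ and at 20.4, 27.9 and 33.0 CPM with both. Every stimulated library of this layout was below every unstimulated one. Its log2 fold change was −0.66 with both stimuli (SE 0.176, adjusted p 0.00461), −0.48 with *E. coli* (SE 0.162, adjusted p 0.0329) and −0.45 with IFN-γ (SE 0.169, adjusted p 0.0520), the last of which was not called. The call with *E. coli* was not made by DESeq2 (−0.47, adjusted p 0.0881), without a filter on low counts (−0.43, 0.109), in one fit of all 18 libraries (−0.45, 0.0953) or without unstimulated replicate a (−0.48, 0.0834), b (−0.44, 0.0868) or c (−0.49, 0.0635). It also ended without *E. coli* replicate 2 (−0.43, 0.124) or 3 (−0.42, 0.0970). The fall with IFN-γ was called without IFN-γ replicate 1 (−0.54, adjusted p 0.0488) or replicate 3 of both stimuli (−0.42, 0.0497), at 10 or more counts in every library (−0.49, 0.0308) and in the fit of only the 6 libraries compared (−0.45, 0.0433). Against all 6 unstimulated libraries as one group, the change was −0.17 with both stimuli (adjusted p 0.653) and −0.03 with *E. coli* (adjusted p 0.950), neither of them called, and 0.02 with IFN-γ. While *Il13ra1* rose 10.4-fold with IFN-γ, this kinase was thus higher in none of the IFN-γ libraries than in replicates a to c.

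In the IL-4 layout *Tyk2* stood at 11.1, 18.9 and 18.7 CPM without and at 25.1, 18.9 and 21 CPM with IL-4. The groups overlapped, and the change of 0.40 was not called (adjusted p 0.312; without replicate e 0.51, adjusted p 0.208). The responses of *Tyk2* to IL-4 and to IFN-γ differed by 0.81 (SE 0.275, adjusted p 0.0324), a call that ended in 7 of the 18 fits that left out a library, at 0.61 to 0.81, and without a filter on low counts (0.81, adjusted p 0.0604). Without replicate e it was 0.91 (adjusted p 0.0196). Its unstimulated level was 43.1 ± 1.14 CPM (SD, n = 3) in replicates a to c and 16.2 ± 4.43 CPM in d to f, so that all 6 IL-4-layout libraries lay below all unstimulated libraries of the other layout.

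*Jak3* (ENSMUSG00000031805, chromosome 8, 71676296 to 71690575), the kinase of *Il2rg*, was the least counted of the kinases. It stood at 15.3, 15.8 and 12 CPM in unstimulated replicates a to c, at 10.6, 7.36 and 14.8 CPM with *E. coli* and at 16.8, 16.9 and 15.0 CPM with IFN-γ. With both stimuli it stood at 20.4, 14.8 and 27.0 CPM. Each stimulus overlapped the unstimulated range, and no comparison with unstimulated cells called it, though without replicate 2 of both stimuli its rise with both was called (0.74, adjusted p 0.0381). With both stimuli against *E. coli* alone it was higher by 0.95 (SE 0.274, adjusted p 0.0120), a call that ended without *E. coli* replicate 2 (0.70, adjusted p 0.0791) or without replicate 3 of both stimuli (0.70, adjusted p 0.0782). With IL-4 it changed by 0.10 (95% interval −0.50 to 0.71), at 8.94, 14.3 and 13.2 CPM against 9.16, 14.6 and 9.82 CPM without, and by 0.35 without replicate e (adjusted p 0.476). The rise of *Il2rg* with IFN-γ was thus not matched by a called rise of its kinase, whose log2 fold change was 0.19 (95% interval −0.38 to 0.76). The difference between these 2 genes was not tested.

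Counted together, 4 of the 9 genes were called higher with *E. coli*, where 13.5% of all genes tested were, and 2 lower, where 16.7% were. With IFN-γ 2 were higher against 15.6% of all genes, and 0 were lower by edgeR against 16.0%. With both stimuli 3 were higher against 23.9% and 2 lower against 25.2%. With IL-4 2 were higher against 5.97%, and 0 were lower by edgeR against 4.35%. Beside these counts of 0, edgeR placed 3 of the genes under an unadjusted p of 0.05 in either direction with IFN-γ and 3 with IL-4, and DESeq2 called the same numbers as edgeR in both comparisons, 2 and 2. Most of these shares rest on 2 or 3 genes and are too small to be set apart from the background. The median log2 fold change of the 9 genes was −0.02 with *E. coli*, 0.14 with IFN-γ, 0.21 with both and 0.19 with IL-4, against −0.02, −0.03, −0.04 and 0.00 over all genes. These comparisons share their unstimulated libraries within a layout.

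Direct comparisons order the stimuli. With both stimuli against IFN-γ alone, edgeR called 0 of the 9 genes, against 6.25% of all genes higher and 5.98% lower. It placed 2 at an unadjusted p under 0.05, and DESeq2 called 1, *Ifngr2* (0.35, adjusted p 0.0424; by edgeR 0.35, adjusted p 0.0536). Against *E. coli* alone, both stimuli together called 3 genes higher (17.5% of all genes) and 2 lower (15.3%). IFN-γ against *E. coli*, a comparison added after the values had been seen, called 2 higher (14.1%) and 2 lower (11.5%). In it *Il4ra* was lower with IFN-γ by −0.91 (SE 0.107, adjusted p 2.45e-06) and *Ifngr2* by −0.58 (SE 0.112, adjusted p 6.55e-04). *Il13ra1* was higher by 2.12 (SE 0.206, adjusted p 2.25e-07). The departure from additivity called 0 higher by edgeR (2.58% of all genes) and 2 lower (2.04%), with 3 genes under an unadjusted p of 0.05 and 3 called by DESeq2. The comparison of the responses to IL-4 and IFN-γ called 3 higher (13.0%) and 2 lower (14.7%).

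**Figure D2:**
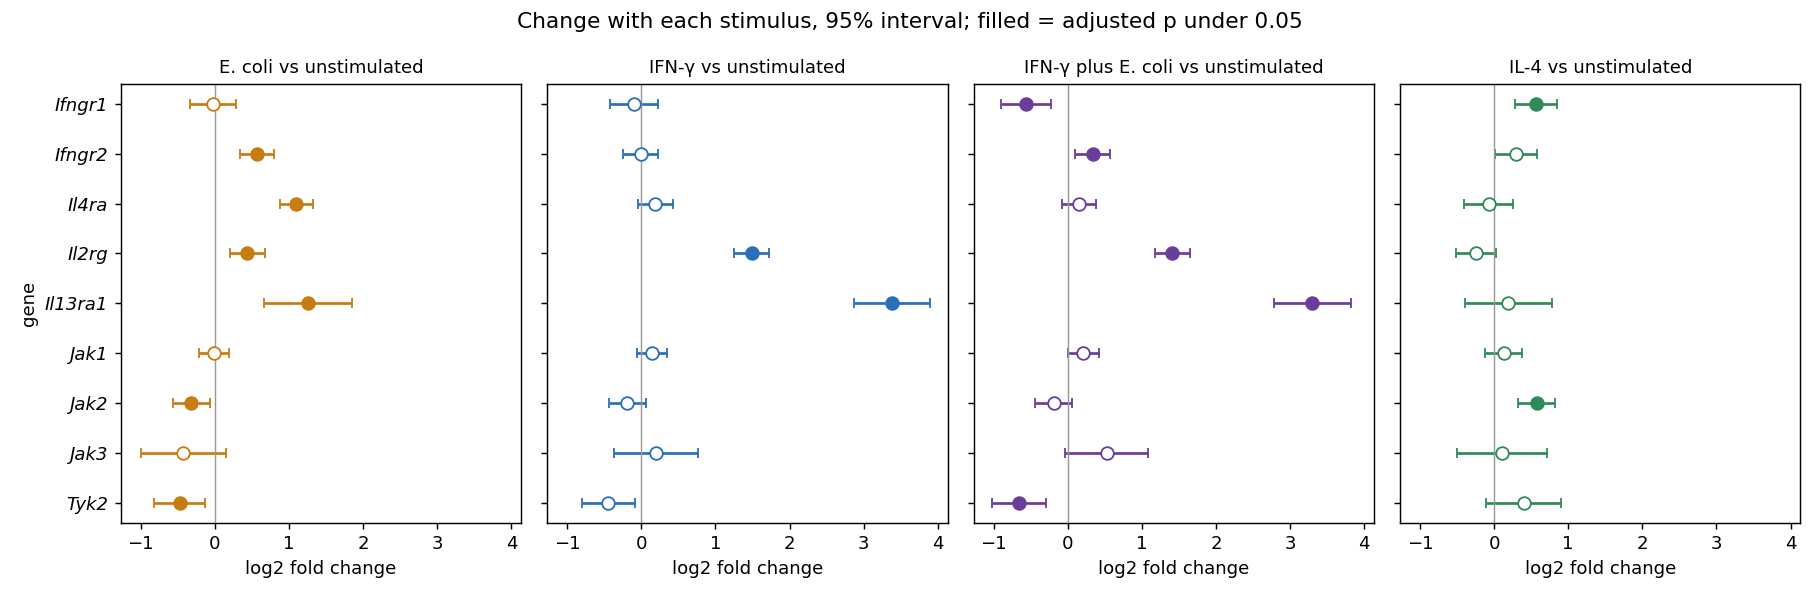
Log2 fold change of each of the 9 genes from unstimulated cells of the same layout with each stimulus, with its 95% interval from edgeR; filled points are called at an adjusted p under 0.05. IFN-γ moves *Il13ra1* (3.38) and *Il2rg* (1.49) and IL-4 moves *Ifngr1* (0.56) and *Jak2* (0.57), while the intervals of each cytokine's own ligand-binding chain span 0.

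Of the ligands of these receptors, *Il4* and *Il13* had counts in every library. *Il13* stood at 10.1 ± 5.60 CPM (SD, n = 3) in unstimulated replicates a to c, at 196 ± 12.1 CPM with *E. coli*, at 15.0 ± 2.85 CPM with IFN-γ and at 99.0 ± 0.353 CPM with both. The libraries with *E. coli* did not overlap those without it. The rise was 4.33 in log2 with *E. coli* (SE 0.229, 20.1-fold, adjusted p 1.25e-10) and 3.34 with both (SE 0.242, 10.1-fold, adjusted p 1.87e-09). Adding IFN-γ lowered *Il13* against *E. coli* alone by −0.99 (SE 0.174, adjusted p 2.14e-04), close to the fall of *Il4ra* in the same comparison. With IL-4 *Il13* went from 11.9 ± 1.73 to 3.73 ± 0.792 CPM (−1.67, SE 0.286, adjusted p 0.00461). *Il4* rose from 108 ± 9.80 CPM to 155 ± 9.67 CPM with *E. coli* (0.53, SE 0.120, adjusted p 0.00244). *Ifng* was at 0 in all unstimulated and IFN-γ libraries and held at most 4 counts in any other, and the decoy receptor for IL-13, *Il13ra2*, was at 0 in all 18 libraries.

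The STAT transcription factors follow the receptors. All 7 were tested, and 1 was higher and 3 lower with *E. coli*, 5 higher and 1 lower with IFN-γ, and 5 higher and 0 lower with both. With IL-4 2 were higher and 0 lower. Of all genes tested, 13.5% were higher and 16.7% lower with *E. coli*, 15.6% and 16.0% with IFN-γ, 23.9% and 25.2% with both, and 5.97% and 4.35% with IL-4, and the counts of this and the next lists are to be read against these shares. *Stat3* went from 208 ± 11.8 to 502 ± 48.7 CPM with IFN-γ (1.27, SE 0.116, adjusted p 1.22e-07). *Stat4* fell from 17.5 ± 4.89 to 7.53 ± 4.64 CPM (−1.16, SE 0.340, adjusted p 0.0136). *Stat6*, the factor of the IL-4 receptors, falls under the size at which genes were to be named and is given, by a choice made after its values were seen, because it completes the pathway. It rose by 0.49 with IFN-γ (adjusted p 0.00112), where 5 of the 7 STATs were higher, and changed by −0.01 with IL-4 (adjusted p 0.969). The responses of *Stat6* differed by −0.53 (adjusted p 0.0296).

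Inhibitors of Janus kinase signalling numbered 20, all tested. Higher and lower were 7 and 0 with *E. coli*, 2 and 2 with IFN-γ, 9 and 2 with both, and 4 and 0 with IL-4, where the shares of all genes were 13.5% and 16.7%, 15.6% and 16.0%, 23.9% and 25.2%, and 5.97% and 4.35%. The counts with IFN-γ lie near or below these shares. *Socs1*, which blocks the kinases at both receptors, rose with IFN-γ from 509 ± 61.8 to 1290 ± 114 CPM (1.34, SE 0.124, adjusted p 1.50e-07) and with IL-4 from 291 ± 30.5 to 835 ± 79.3 CPM (1.52, SE 0.127, adjusted p 9.61e-05). *Socs3* rose with *E. coli* from 46.6 ± 6.28 to 188 ± 71.6 CPM (2.00, SE 0.226, adjusted p 2.00e-06), to 231 ± 60.4 CPM with both, and with IL-4 from 60.8 ± 6.90 to 152 ± 8.93 CPM (1.32, SE 0.133, adjusted p 2.37e-04). *Socs2* fell with IFN-γ from 441 ± 20.6 to 194 ± 37.7 CPM (−1.18, SE 0.131, adjusted p 1.36e-06) and to 217 ± 26.0 CPM with both. The phosphatase *Ptpn2* rose with both stimuli from 74.0 ± 8.93 to 178 ± 28.2 CPM (1.28, SE 0.133, adjusted p 2.38e-07). Both cytokines thus raised *Socs1* while the chain that binds each was not called.

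Of 36 other receptor chains that signal through Janus kinases, 21 were tested in each layout. Higher and lower were 3 and 3 with *E. coli*, 5 and 3 with IFN-γ, 8 and 3 with both, and 3 and 1 with IL-4. Against the same shares of all genes (13.5% and 16.7%, 15.6% and 16.0%, 23.9% and 25.2%, 5.97% and 4.35%), most of these counts are too small to be set apart. The IL-5 receptor chain *Il5ra*, a receptor of the cytokine that the transgene supplies, fell with *E. coli* from 179 ± 26.9 to 70.7 ± 2.61 CPM (−1.35, SE 0.141, adjusted p 7.58e-07). *Lifr* fell with IFN-γ from 32.4 ± 4.24 to 9.41 ± 2.27 CPM (−1.77, SE 0.272, adjusted p 5.87e-05) and *Il15ra* rose from 49.3 ± 9.77 to 117 ± 7.03 CPM (1.22, SE 0.161, adjusted p 1.04e-05). *Il12rb1* went from at most 1 count in unstimulated libraries to 4 to 15 counts with IFN-γ (adjusted p 2.76e-04) and 5 to 10 counts with both (adjusted p 3.02e-04). With both stimuli *Lifr* stood at 8.88 ± 3.13 CPM, *Il15ra* at 130 ± 26.7 CPM and *Csf2rb2* at 1670 ± 173 CPM, the last against 675 ± 69.3 CPM (1.31, SE 0.129, adjusted p 1.19e-07). *Il6st* rose with IL-4 from 6.94 ± 1.94 to 14.2 ± 1.41 CPM (1.00, SE 0.261, adjusted p 0.0357).

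Genes known to respond to a cytokine can respond to other stimuli too, and what the receptors passed on was not tested. Of 10 genes known to be switched on by IFN-γ, all tested, 9 were higher with IFN-γ, 10 with both stimuli and 5 with IL-4, with 0 lower in each. With *E. coli* 2 were higher and 5 lower. Of all genes 15.6% were higher with IFN-γ, 23.9% with both and 5.97% with IL-4, and with *E. coli* 13.5% were higher and 16.7% lower. The median log2 fold change of the 10 genes was 1.71 with IFN-γ, 1.67 with both, −0.21 with *E. coli* and 0.79 with IL-4, against −0.03, −0.04, −0.02 and 0.00 over all genes. *Cxcl9* went from 3.18 ± 2.25 to 345 ± 11.2 CPM with IFN-γ (6.69, SE 0.303, 103-fold, adjusted p 9.47e-12) and *Cd274* from 155 ± 41.9 to 1040 ± 28.2 CPM (2.75, SE 0.152, adjusted p 1.06e-10). *Gbp5* rose by 2.21 (SE 0.241, adjusted p 1.13e-06). *Gbp2* was also called higher, but its 3644 to 3706 counts with IFN-γ lie near the largest count this layout can hold, so its size of change is not given, and those of *Cd274* and *Csf2rb2*, at up to 2726 and 2703 counts with both, may be read too low. *Cd274* also rose with *E. coli*, by 1.04 (SE 0.147, adjusted p 2.74e-05), and to 1560 ± 65.7 CPM with both. *Ciita* went from 6 to 10 counts in unstimulated libraries to 0 to 2 with *E. coli* (adjusted p 0.00181), and with IL-4 from 2 to 7 counts to 10 to 24 (adjusted p 0.0432). *Ciita* was the gene not called with IFN-γ (6 to 11 counts, adjusted p 0.559), and *Ifngr1* and *Ifngr2* were not called with it either.

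Of 12 genes known to be switched on by IL-4, 12 were tested with IL-4, of which 10 were higher and 1 lower. In the other layout 10 were tested, and 3 were higher and 1 lower with *E. coli*, 5 higher and 0 lower with IFN-γ, and 7 higher and 0 lower with both. Of all genes 5.97% were higher and 4.35% lower with IL-4, 13.5% and 16.7% with *E. coli*, 15.6% and 16.0% with IFN-γ, and 23.9% and 25.2% with both. The median log2 fold change was 1.96 with IL-4, 0.71 with IFN-γ, 1.23 with both stimuli and −0.06 with *E. coli*, against 0.00, −0.03, −0.04 and −0.02 over all genes. *Ccl8* went from 10.6 ± 3.61 to 111 ± 5.81 CPM with IL-4 (3.43, SE 0.212, 10.8-fold, adjusted p 2.63e-05) and *Pdcd1lg2* from 2.53 ± 0.472 to 21.7 ± 1.71 CPM (3.11, SE 0.253, 8.62-fold, adjusted p 9.61e-05). *Pparg* went from at most 1 count to 14 to 38 counts (adjusted p 0.00158) and *Ccl17* from 1 to 3 counts to 22 to 37 (adjusted p 0.00232). *Pdcd1lg2* went from 2 to 3 counts in unstimulated replicates a to c to 20 to 37 with *E. coli* (adjusted p 4.20e-06), 8 to 12 with IFN-γ (adjusted p 7.69e-04) and 29 to 53 with both (adjusted p 8.56e-09). *Ccl8* fell with *E. coli* from 6.43 ± 2.77 to 2.14 ± 1.15 CPM (−1.64, SE 0.479, adjusted p 0.0139). *Socs1* is on the lists of both cytokines and of the inhibitors and *Cish* on those of inhibitors and IL-4.

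Genes whose pattern over the libraries was most like that of a member were sought by Pearson correlation of log2 CPM, as a description. Over the 12 libraries of the first layout, among 7922 genes, the most alike to *Il13ra1* were *Pgm1* (0.991), *Bnip3* (0.989) and *Pafah1b3* (0.988). For *Il2rg* they were *Gm2a* (0.987), *Il13ra1* (0.983) and *Nabp1* (0.983). *Il2rg* was not among the first 3 for *Il13ra1*. *Il4ra* was most like *Sema4a* (0.953), *Ptdss1* (0.937) and *Il10ra* (0.937), the last a receptor chain that also uses Jak1. *Ifngr2* was most like *Mmp13* (0.942), *Ahrr* (0.941) and *Ppp2r1b* (0.923), and *Ifngr1* like *Vcl* (0.939), *AI467606* (0.925) and *Tspan14* (0.920). Over the 6 of the second layout, among 7044 genes, *Jak2* was most like *Lpin2* (0.998), *Lhfpl2* (0.997) and *AI597479* (0.995), and *Ifngr1* like *Cyp4f18* (0.989), *Rnf213* (0.985) and *Rassf3* (0.985). There *Il2rg* was most like *Crtap* (0.989), *Fbxo11* (0.985) and *C1qb* (0.983), the last of which is on the list of macrophage markers. With groups that lie apart, such values mostly restate which stimulus moved a gene.

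The promoters of members that moved together were read for the sequences that STAT dimers bind. RefSeq windows of 300 bases on GRCm38.p6, from 250 bases before the start of a gene to 50 after it, were found for all 9. TTCNNNGAA, the shorter form, was in 2726 of 32851 windows of the table (8.30%) and in 0 of the 9. The longer form that Stat6 prefers, TTC and GAA with 4 free bases between them, was in 2284 windows (6.95%) and, of the 9, in that of *Ifngr2* alone. Both motifs read the same on either strand, and their spacing keeps them from overlapping at the same start. The match in *Ifngr2* is TTCCCGGGAA at chromosome 16, 91546968 to 91546977, and begins 91 bases before the start. A match is a string of letters and not a site shown to be bound, and no match speaks for this window alone. The windows of *Il13ra1* and *Il2rg* are shown because both genes rose with IFN-γ, and that of *Ifngr2* for its match, in capitals. They are chr16:91546809-91547108 (plus strand), chrX:36111858-36112157 (plus strand) and chrX:101268206-101268505 (minus strand), each written 5′ to 3′.
Ifngr2: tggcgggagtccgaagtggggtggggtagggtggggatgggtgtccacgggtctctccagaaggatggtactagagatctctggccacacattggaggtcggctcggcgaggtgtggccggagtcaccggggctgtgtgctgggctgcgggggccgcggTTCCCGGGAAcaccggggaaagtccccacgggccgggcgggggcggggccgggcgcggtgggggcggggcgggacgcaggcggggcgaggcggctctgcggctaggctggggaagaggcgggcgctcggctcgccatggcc
Il13ra1: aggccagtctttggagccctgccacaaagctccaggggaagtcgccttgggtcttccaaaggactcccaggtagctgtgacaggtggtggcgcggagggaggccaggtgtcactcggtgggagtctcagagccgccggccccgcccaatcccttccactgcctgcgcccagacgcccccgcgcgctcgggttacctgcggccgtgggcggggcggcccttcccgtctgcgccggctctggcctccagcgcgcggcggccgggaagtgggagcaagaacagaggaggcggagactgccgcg
Il2rg: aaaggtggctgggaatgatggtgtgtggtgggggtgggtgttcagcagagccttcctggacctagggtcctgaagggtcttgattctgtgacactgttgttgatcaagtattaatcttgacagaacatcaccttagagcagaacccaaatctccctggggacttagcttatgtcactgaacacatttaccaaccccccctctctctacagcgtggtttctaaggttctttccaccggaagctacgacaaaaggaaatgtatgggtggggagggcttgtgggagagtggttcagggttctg

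Lists of marker genes show which cells the RNA came from. Of 12 eosinophil markers, 9 were over 3 counts in every library of the first layout and 12 in every library of the second, and their sum differed between groups. It was 5260, 6950 and 5500 CPM in replicates a to c and 5380, 4780 and 5400 CPM with *E. coli*. With IFN-γ it was 5800, 5320 and 6370 CPM. With both it was 5060, 4470 and 5000 CPM, all below a to c. The genes moved both ways with both stimuli. The means of *Siglecf* (1020 to 348 CPM), *Alox15* (1620 to 1070 CPM), *Cebpe*, *Il5ra*, *Prg2*, *Epx* and *Ear1* fell. Those of *Gata1* (237 to 396 CPM), *Adgre1* (893 to 1100 CPM), *Ccr3*, *Ear6* and *Ear2* rose. The sum was 6260, 7450 and 6370 CPM in replicates d to f and 5840, 6140 and 6070 CPM with IL-4, again all lower. Here the means of *Ccr3* (2150 to 1300 CPM), *Adgre1* (738 to 424 CPM), *Gata1*, *Ear1* and *Ear2* fell. Those of *Siglecf* (707 to 925 CPM), *Ear6* (138 to 348 CPM), *Prg2*, *Il5ra*, *Cebpe* and *Epx* rose, and *Alox15* stood at 2400 and 2410 CPM. The part of these shifts in the results was not tested. *Alox15* led in unstimulated replicates of both layouts, and its 3197 to 3732 counts in a to c lie near the largest count of that layout, while the granule gene *Epx* held 2 to 4 and 5 to 13 counts. All 11 macrophage markers were present, led by *Lyz2*. Their sum was 2000, 1790 and 1920 CPM in replicates a to c, 1060, 989 and 1730 CPM with *E. coli*, and 2350, 2200 and 2310 CPM with IFN-γ. It was 1860, 2120 and 2510 CPM with both, 3580, 3910 and 4690 CPM in replicates d to f, and 2940, 2820 and 3330 CPM with IL-4. Macrophage markers were thus somewhat higher with IFN-γ, where *Il2rg* was higher too, and higher in d to f than in a to c, as *Il2rg* was. Their part in the level of *Il2rg* was not tested.

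Lymphocyte markers matter here because *Il2rg* and *Jak3* are abundant in lymphocytes. The sum of 8 T cell markers was 1.81 to 9.32 CPM over all 18 libraries, led by *Cd3d*, and that of 6 markers of NK and innate lymphoid cells was at most 0.951 CPM, with all 6 at 0 in each IFN-γ library. The 7 B cell markers, led by *Ighm*, summed to 222, 199 and 120 CPM in replicates a to c, 42.0, 46.1 and 78.5 CPM with *E. coli*, 100, 63.0 and 61.5 CPM with IFN-γ, and 126, 138 and 131 CPM with both. They summed to 25.0, 24.0 and 44.0 CPM in replicates d to f and 65.8, 60.3 and 73.4 CPM with IL-4. B cell markers were thus lower with IFN-γ, where *Il2rg* was higher. They were higher with IL-4, where *Ifngr1* and *Jak2* were higher as well. *Ciita* was lower with *E. coli* and higher with IL-4, as the sum of these markers was. The part of B cells in these results was not tested.

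The 8 neutrophil markers summed to 42.5, 35.5 and 45.0 CPM in replicates a to c, 159, 129 and 213 CPM with *E. coli*, 71.1, 67.7 and 79.1 CPM with IFN-γ, and 71.6, 83.3 and 111 CPM with both. They summed to 19.7, 20.9 and 23.6 CPM in replicates d to f and 41.7, 41.5 and 67.4 CPM with IL-4. *Cxcr2* led with *E. coli* and IL-4 and *S100a8* with IFN-γ, while of the granule markers *Elane* was at 0 in every *E. coli* library and *Elane*, *Ltf* and *Mpo* in every IFN-γ library. This sum rose with each stimulus, though its genes moved both ways, *Cxcr2* falling from 26.2 to 7.78 CPM with IFN-γ and *S100a8* from 7.74 to 4.77 CPM with IL-4. It rose with *E. coli* along with *Il4ra* and *Ifngr2*, and its part in their rise was not tested. The 7 mast cell markers summed to at most 10.1 CPM in unstimulated libraries, led by *Tpsb2*, and to 36.5, 72.9 and 66.6 CPM with both stimuli, led by *Cma1*. The part of mast cells in the rise of *Il13ra1* with both stimuli was not tested, and with IFN-γ alone, where that gene rose 10.4-fold, their sum was 30.2, 14.4 and 13.1 CPM. It was 10.2, 6.69 and 34.6 CPM with *E. coli*. In replicates d to f it was 8.61, 6.96 and 7.36 CPM, and 17.5, 8.31 and 21 CPM with IL-4, where *Ifngr1* and *Jak2* were higher. The 6 dendritic cell markers, led by *Siglech* or *Xcr1*, summed to 5.71 to 11 CPM in the first layout. They summed to 5.55, 4.31 and 7.93 CPM in replicates d to f and 7.61, 13.5 and 17.9 CPM with IL-4. The part of mast and dendritic cells in the changes with *E. coli* and IL-4 was not tested.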

How the data were processed

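The authors deposited whole-number counts per Ensembl gene, and all values start from these counts. The labels name TopHat2 2.1.0, HTSeq 0.6.1, fastp 0.20.1, STAR 2.7.2a and GRCm38 for all libraries alike, and whether molecular identifiers were collapsed is not stated. The HTSeq summary lines were left out. They exist in the first layout only, where reads on no feature made up 18.88% to 37.58% and ambiguous reads 1.84% to 2.27% of each file.

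Genes passing edgeR's filterByExpr were tested with edgeR 4.0.16 in R 4.3.3 (TMM, quasi-likelihood test, Benjamini-Hochberg), 9883 in the 12 libraries of the first layout, 10556 in the 6 of the second and 10671 in all 18 for the contrast of responses. Standard errors and intervals were derived from the F statistic. The biological coefficient of variation was 0.118 and 0.182. Ratios used log2 CPM with a prior count of 2.

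The members and lists were chosen with earlier results of these data known. From a list, genes called with a log2 fold change of at least 1 in size against unstimulated cells may be named, up to 4 for a comparison, and not each of these is described. The values of some list genes are not reported here. Alternatives were DESeq2 1.42.0 or its size factors, other filters, a factor of 2, other control groups, a replicate block, prior counts of 0.5 and 5, leaving out each library and, added after the data were seen, a correction for shared identifiers. Genes overlapping *Il4ra*, *Il2rg*, *Jak1*, *Jak3* and *Tyk2* held at most 4 counts. Likeness was sought among tested genes with a mean of at least 10 CPM.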

Additional observations from a re-analysis of the deposited data

Results flagged for a closer look

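Of the 9 genes, 6 were called in at least 1 of 2 tests of a difference between effects. The tests were the departure from additive effects of *E. coli* and IFN-γ and the response to IL-4 against that to IFN-γ. The departure called 0 members higher by edgeR (2.58% of all genes) and 2 lower (2.04%). The responses called 3 higher (13.0%) and 2 lower (14.7%). The effect of *E. coli* on *Il4ra* differed between cells with and without IFN-γ by a log2 of −1.14, since it rose with *E. coli* alone and not with both. For *Il13ra1* the same difference was −1.34, a call that ended in 7 of the 12 fits that left out a library.

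The response to IL-4 differed from the response to IFN-γ over all 18 libraries for *Il13ra1* (−3.23) and *Il2rg* (−1.77), which rose with IFN-γ and were not called with IL-4. It differed in the other direction for *Ifngr1* (0.63) and *Jak2* (0.73), which rose with IL-4 and were not called with IFN-γ. For *Tyk2* the difference was 0.81, with neither response called on its own. The call for *Ifngr1* ended in 8 of the 18 fits that left out a library, and that for *Tyk2* in 7. The IL-4 and IFN-γ libraries lie in different layouts, and such a contrast removes a difference between layouts as far as it multiplies the levels of a gene equally with and without the stimulus.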

How the results depend on the processing

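Of 31 calls on the 9 genes, 15 kept direction and call in every setting counted here, 15 were lost in some and 1 reversed. Of 50 values not called, 10 were called in some. The requirement of a minimum fold change, given separately below, is not counted here, and some of the 15 calls kept do not reach it. A reported value within 1 SE of 0 was given no direction, so *Il4ra* with IL-4, which ran from −0.17 to 0.17, is not counted as reversed. The cause was not tested for any change below unless its construction shows it.

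With all 6 unstimulated libraries as one group, 1 member was called with IFN-γ, 2 with both, 3 with *E. coli* and 3 with IL-4. With IL-4 *Ifngr2* was added (0.44, adjusted p 0.0349). Of all genes, 2170 were called there with IFN-γ, 3816 with both, 2164 with *E. coli* and 1662 with IL-4. Within a layout these numbers were 3120, 4844, 2986 and 1089. Values that changed sign there were *Il2rg* −0.33 with *E. coli* and 0.27 with IL-4, *Il4ra* −0.047 with IFN-γ, −0.062 with both and 0.17 with IL-4, *Jak1* −0.018 with IFN-γ, and *Tyk2* 0.018 with IFN-γ and −0.14 with IL-4. All but *Il2rg* with *E. coli* and *Il4ra* with IL-4 ended within 1 SE of 0. *Il2rg* was 0.74 with IFN-γ (adjusted p 0.0880) and 0.68 with both (0.0815). One fit of all 18 libraries called 1892 genes with IL-4.

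For both stimuli against IFN-γ, *Ifngr2* was called by DESeq2 (0.35, adjusted p 0.0424) and with the replicate number as a block (0.34, 0.0259), and *Ifngr1* without a filter (−0.49, 0.0235). Without replicate 3 of both stimuli *Ifngr1* was called too (−0.65, 0.0153), and *Ifngr2* without replicate 2 (0.42, 0.0427) or unstimulated b (0.34, 0.0397). In the block, 1 member was called against IFN-γ, with 1430 genes called in all. Against *E. coli* *Jak1* was 0.22 (0.0475), which made 6 members, with 3447 genes called in all. Same-numbered libraries correlated at −0.045 to 0.331 over 9 pairs, with 4 over 0.1. Libraries with different numbers correlated at −0.377 to 0.266, so these values do not settle whether the numbers pair. Without a filter 1634 genes were called with IL-4. At 10 or more counts in every library, where *Il13ra1* is not tested, 1 member departed from additivity, with 436 genes called in all.

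Requiring a factor of 2 lowers counts by construction. Members called were then 2 with *E. coli*, 2 with both and 0 with IL-4. Without this requirement, edgeR placed 3 members at an unadjusted p under 0.05 with IL-4, and DESeq2 called 2. With it, members called were 1 for both against *E. coli*, 2 for IFN-γ against *E. coli* and 2 for IL-4 against IFN-γ responses. Genes called were 1187 with IFN-γ, 1023 with *E. coli*, 2210 with both, 478 with IL-4, 404 for both against IFN-γ, 1325 for both against *E. coli*, 1027 for IFN-γ against *E. coli*, 245 for the departure from additivity and 1789 for the responses.

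Leaving out a library in turn gave 483 to 1394 genes with IL-4, 740 to 1234 for both against IFN-γ and 266 to 562 for the departure from additivity. It gave 2519 to 3315 genes for both against *E. coli* and 2288 to 3247 for the responses. Members called were 0 to 2 with IL-4, 0 to 1 for both against IFN-γ, 3 to 5 for both against *E. coli*, 1 to 3 for the departure and 3 to 5 for the responses. Calls gained there and not named elsewhere were *Jak3* for IFN-γ against *E. coli* without *E. coli* replicate 3 (0.87, adjusted p 0.0373) and *Ifngr2* for both against *E. coli* without replicate 3 of both stimuli (−0.32, 0.0463). The log2 ratio of *Il13ra1* to *Il2rg* rose with both stimuli by 1.86 at a prior count of 0.5 and by 1.49 at 5.

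No gene of the first layout exceeded the number of identifiers that 6 bases can spell, while the highest count in the second was 191131. Counts of the first may thus be molecules and those of the second reads, which was not tested, so levels and floors may not share a unit. Member counts reached 1420 in the first. Corrected for shared identifiers, *Il2rg* rose with IFN-γ by 1.63, and its departure from additivity was called (−0.59, adjusted p 0.0372). Depth limits *Il13ra1* and *Jak3* most, with as few as 9 and 22 counts in a library.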
